A study of Mus musculus with 8 samples.

Results

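The genes examined here encode the 5 NF-kB subunits and 5 of the proteins that hold NF-kB in check or modify it in mouse ovarian tumor cells with and without active Notch3. They are Nfkb1, Nfkb2, Rela, Relb and Rel for the subunits, and Nfkbia, Nfkbie, Bcl3, Tnfaip3 and Birc3 for the regulators. They were taken by symbol from the 23284 symbols of the deposited tables, and all 10 were found and passed the expression filter. The cells were ID8 IP2, a subline of the mouse ovarian surface epithelial line ID8 that was passed through mice. For the Notch3IC group they were infected with a pCCL lentivirus that carried codons 1664 to 2318 of Notch3, its intracellular domain, with an HA tag and an IRES-GFP, and for the Control group with pCCL alone. Sets 1 to 4 are matched Control and Notch3IC lines from separate infections of this parental line, which gave 4 libraries per group and 8 in all. By the study's methods the parental cells had also been infected with a luciferase-mCherry vector, and all lines were probably mycoplasma positive throughout, so the Control lines share both conditions with the Notch3IC lines. Between 15524262 and 28208072 reads per library were counted on genes. The p-values given here measure the spread between these infections.

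NF-kB is a family of dimeric transcription factors that share a Rel homology domain. Rela, Relb and Rel encode subunits with a transactivation domain, while Nfkb1 and Nfkb2 encode long precursors that are processed to the DNA-binding subunits p50 and p52. In resting cells IkB proteins hold the dimers in the cytoplasm. In the canonical pathway the IKK kinases mark IkB for degradation, and in the non-canonical pathway the kinase NIK drives processing of the Nfkb2 precursor. Several inhibitors are themselves NF-kB target genes, and this feedback makes their transcripts a common readout of the pathway. Links between Notch3 and NF-kB are known from leukemia, and the question put to these libraries was whether transcripts of the NF-kB system differed between Notch3IC and Control lines.

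The promoters of the genes were searched for stretches that fit the kappaB consensus, the short pattern bound by NF-kB dimers. RefSeq promoter windows on GRCm38.p6, from 250 bases before to 50 bases after an annotated start, were found for 8 of the 10 genes (not Nfkb1 and Relb) in 11 windows. Matches on either strand were present in 8 of the 11 windows and in 6 of the 8 genes (Nfkb2, Rel, Nfkbia, Nfkbie, Bcl3 and Tnfaip3), against 4.505% of all 32851 windows of the same length. One match in Nfkb2 was counted in a pair of overlapping windows. The lines below show 1 match from each of 5 genes, with the match in capitals. Nfkbia and Nfkb2 are the reference examples of feedback, and Nfkbie, Bcl3 and Tnfaip3 are shown because their counts differed most between the groups.
Nfkbia, chr12:55492658-55492685, minus strand: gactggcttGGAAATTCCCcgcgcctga
Nfkb2, chr19:46304689-46304716, plus strand: gatcgtcacGGGAATTCCCcccctcggg
Nfkbie, chr17:45555585-45555612, plus strand: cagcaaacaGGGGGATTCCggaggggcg
Bcl3, chr7:19822735-19822762, minus strand: cggcggcagGGGAAGTCCCgctgcccgg
Tnfaip3, chr10:19015404-19015431, minus strand: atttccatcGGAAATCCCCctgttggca
The Nfkbia, Nfkb2, Nfkbie and Tnfaip3 matches begin 29, 39, 106 and 12 bases before a start, and the Bcl3 match begins 2 bases after one. The Nfkb2 match reads as the consensus on both strands. The core of the site bound by RBPJ, the DNA-binding partner of the Notch intracellular domain, was searched on both strands as TGGGAA. It was present in 25.56% of all windows and in 2 of the 11 windows of these genes, in Rel and Tnfaip3, and did not overlap a kappaB match there. A match is a description of these letters, not evidence of binding.

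The labels were first checked on Notch3 itself. In Sets 1 to 4, in that order throughout, Control had 38.7, 40.6, 70.8 and 42.0 normalized counts and Notch3IC had 4322, 467, 9220 and 5842. A normalized count is a gene's count per TMM-scaled library size, brought back to the mean of these sizes. Every Notch3IC library was above every Control library, and that of Set 2 was far below the other three. Hey1, a direct Notch target, followed the same order, with 438 normalized counts in the Notch3IC library of Set 2 against 4079, 10642 and 8014 in those of Sets 1, 3 and 4. Heyl and Nrarp, also Notch targets, were called higher too. Heyl was at no more than 1.98 normalized counts in Control and passed the expression filter only through its Notch3IC libraries. Its call is therefore a description. Reads of the inserted and of the endogenous Notch3 cannot be told apart in these counts. Both libraries of Set 1 stood apart from the rest for Nfkb2, as given below, and results are therefore given within each set as well.

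Markers of the labelled tissue were mixed. Wt1 and Upk3b, which mark the ovarian surface epithelium and mesothelium, were abundant, at 3510 to 16410 and 993 to 31801 normalized counts over the 8 libraries. Krt7 and Epcam were low, at no more than 44.0 and 9.51. All 9 tested genes of that marker list had lower fitted values in Notch3IC, with a median log2 fold change of -1.62, and 1 of them, Msln, was called lower (log2 fold change -2.60, adjusted p = 0.0625 by edgeR), where 0.74% of all genes tested were. With a block for the matched set, 5 of the 9 were called lower and 8 passed the adjusted p with no fold limit, against 7.72% and 27.1% of all genes in either direction. The summed level of the 11 genes found of the 12 listed (all but Muc16) was 23121, 47643, 73847 and 70627 normalized counts in Control and 7339, 30446, 26400 and 20359 in Notch3IC. These markers moved with the condition, and their part in the results that follow was not tested. Leukocytes express NF-kB genes strongly, and of their defining markers Emr1 was at 0 in every library and Ptprc at 0 in all but the Notch3IC library of Set 1, at 2.24 normalized counts. The summed level of the 11 leukocyte markers was 170 to 213 normalized counts in Control and 117 to 188 in Notch3IC, most of it from Cd68 and Cd14. Of the 3 that were tested, Csf1r was called higher, at 6.70 to 11.9 normalized counts in Control and 14.7 to 40.3 in Notch3IC, and it passed the expression filter only through Notch3IC, since 1 of its Control libraries reached the level that 4 had to reach. Cd68 and Cd14 were not called and were lower in Notch3IC in 4 of 4 sets, with log2 fold changes of -0.40 and -0.61. Both tested endothelial markers, Pecam1 and Kdr, were not called, and Cdh5 was at 0 or near it.

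Notch3IC and Control were compared with edgeR's quasi-likelihood test over 12430 genes. Calls took the study's thresholds, an adjusted p under 0.1 and a log2 fold change no smaller than 1 in either direction. By this rule 0 of the 10 NF-kB genes were called, against 4.14% of all genes tested. DESeq2 also called 0, against 6.44% of the genes it tested, and so did edgeR with the matched set as a block, against 7.72%. The median log2 fold change of the 10 genes was 0.07, where the median gene tested had -0.01. Without adjustment 3 of the 10 had a p under 0.05, Bcl3, Nfkbie and Tnfaip3, against a background of 18.4%. With no limit on the fold change, 1 of the 10 passed the adjusted p, against 6.69% of all genes, and it was Bcl3. Under the block, again with no such limit, 2 passed, Bcl3 and Nfkbie, against 27.1%. Shares this close to the background are not a result about the family as a whole. Since these are bulk libraries, a lower count can come from fewer cells with the transcript or from less of it per cell, and these cannot be told apart.

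**Figure D1:**
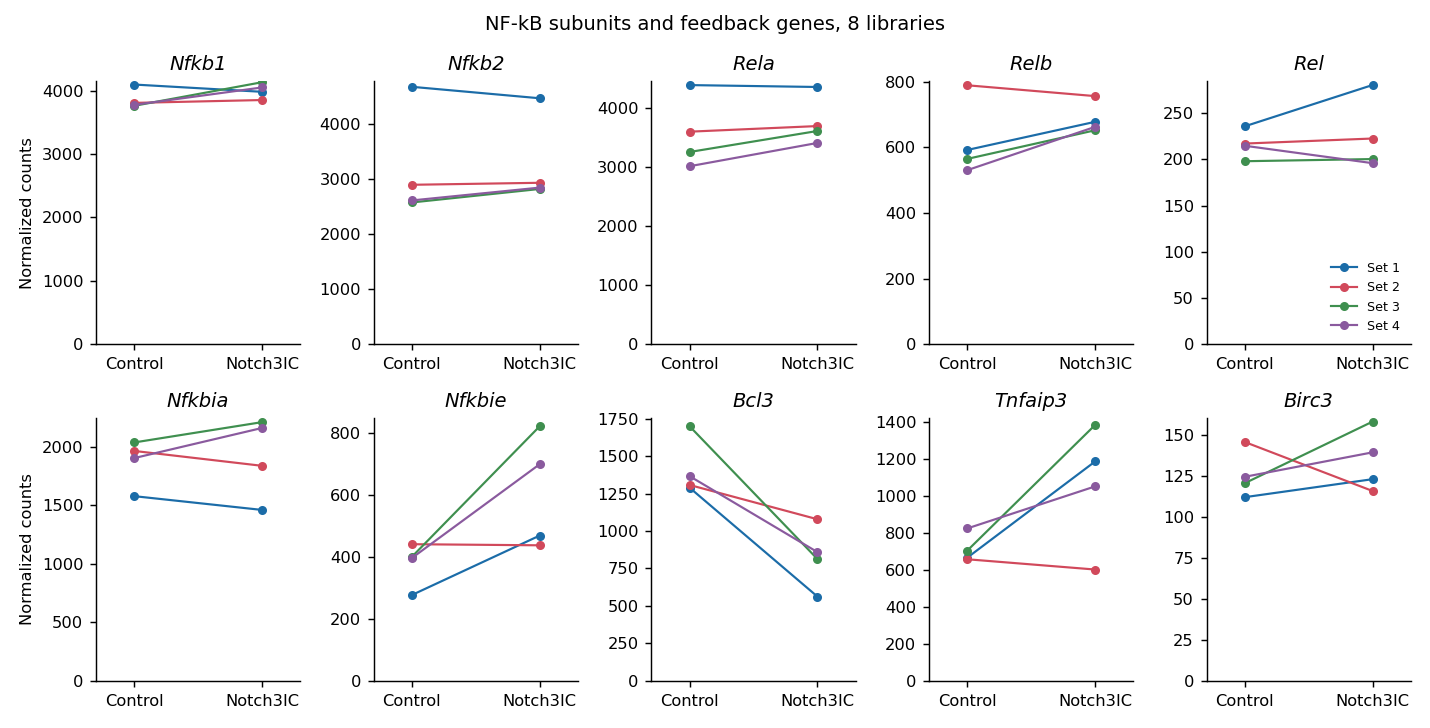
Normalized counts (vertical axes from 0) of the 10 genes in the Control and Notch3IC libraries, with a line joining the libraries of each matched set. The Nfkb1, Nfkb2 and Rela lines run nearly level, Bcl3 slopes down in all 4 sets, and Nfkbie and Tnfaip3 slope up in Sets 1, 3 and 4 and not in Set 2.

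The subunit transcripts were nearly level between the groups. Nfkb1, which encodes the p50 precursor, had 4095, 3806, 3760 and 3775 normalized counts in Control and 3980, 3851, 4132 and 4049 in the Notch3IC libraries. The groups overlapped, and the highest of the 8 libraries was 1.10 times the lowest. Its log2 fold change was 0.05 (95% interval -0.11 to 0.22, adjusted p = 0.768 by edgeR). On the log2 scale the SD of Nfkb1 over the 8 libraries was 0.0553, where the median gene tested had 0.263.

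Rela encodes p65, the main transactivating subunit of the canonical pathway. It had 4390, 3600, 3256 and 3015 normalized counts in Control and 4357, 3695, 3612 and 3410 in Notch3IC. Set 1 was highest and Set 4 lowest in both groups, which overlapped. Rela had a log2 fold change of 0.08 (95% interval -0.23 to 0.39, adjusted p = 0.817 by edgeR).

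Nfkb2 and Relb form the dimer of the non-canonical pathway. Nfkb2 had 4668, 2891, 2571 and 2608 normalized counts in Control and 4460, 2928, 2816 and 2840 in Notch3IC. Both libraries of Set 1 were above all others, and within the sets the conditions lay close together. Its log2 fold change of 0.03 had a wide interval (95% interval -0.50 to 0.57, adjusted p = 0.964 by edgeR), which narrowed to -0.09 to 0.20 under the block. In GENCODE M21, 18.1% of the Nfkb2 exon bases overlap other genes, most of them AC114539.1 on the opposite strand, and whether the libraries kept the strand is not given in the sources used here. Relb had 592, 789, 565 and 530 normalized counts in Control and 678, 756, 652 and 662 in Notch3IC. The Notch3IC value was above that of the matched Control in Sets 1, 3 and 4, with log2 ratios of 0.20, 0.21 and 0.32, and below it in Set 2, with a ratio of -0.06. The log2 fold change of Relb was 0.15 (95% interval -0.16 to 0.46, adjusted p = 0.627 by edgeR). It was 0.29 once the Control library of Set 2 was left out (adjusted p = 0.197), and 1 of the 16 fits that left out a library or a set had an adjusted p under 0.1, the blocked fit without Set 2 (0.0553). That fit called 904 genes higher over all genes, against 645 under the block with all 8 libraries.

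Rel, the subunit c-Rel that is best known from lymphocytes, was the least abundant of the 5. It had 236, 217, 198 and 215 normalized counts in Control and 281, 223, 200 and 196 in Notch3IC. Its log2 fold change was 0.05 (95% interval -0.30 to 0.41, adjusted p = 0.901 by edgeR). Of the 5 subunits, none had a 95% interval that reached 1 on the log2 scale in either direction. The widest was that of Nfkb2.

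**Figure D2:**
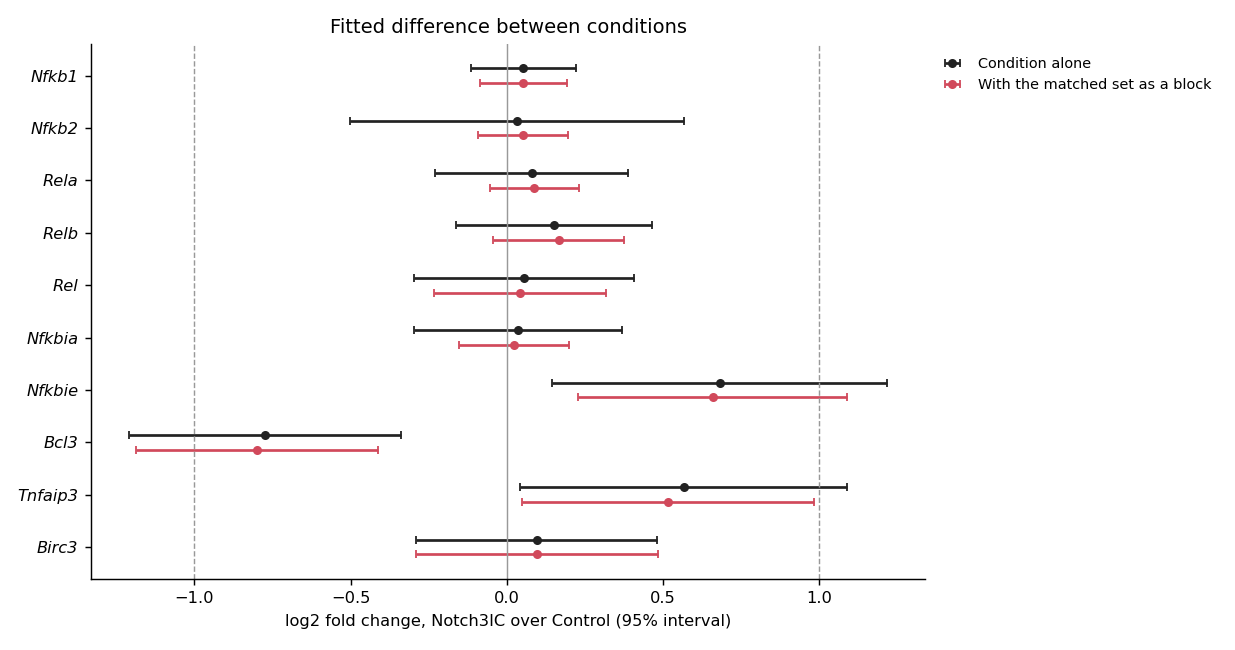
Log2 fold change of Notch3IC over Control for the 10 genes, with 95% intervals from edgeR fits on 8 libraries, in black with condition alone and in red with a block for the matched set. Dashed lines mark a log2 fold change of 1 in either direction. The intervals of Bcl3, Nfkbie and Tnfaip3 lie to one side of 0 and those of the other 7 genes cross it.

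Levels of different genes were compared per kilobase of exon, with exon lengths from GENCODE M21 on GRCm38. Rela led the subunits, at 1161 ± 195 normalized counts per kilobase in Control and 1227 ± 134 in Notch3IC (SD, n = 4 per group). Nfkb2 followed at 695 ± 218 and 711 ± 175, then Nfkb1 at 320 ± 13.1 and 332 ± 9.86, Relb at 159 ± 29.9 and 177 ± 12.2, and Rel at 29.0 ± 2.08 and 30.1 ± 5.22. This order held within each of the 8 libraries. Across libraries, neighbors overlapped only for Rela and Nfkb2, where Nfkb2 in the Control library of Set 1 was at 1018 and Rela in that of Set 4 at 981. As a share of the 5 subunits per kilobase, Rela made up 49.2% ± 1.11 in Control and 49.6% ± 1.06 in Notch3IC. For Nfkb2 the shares were 29.0% ± 3.61 and 28.4% ± 3.18, with 34.3% and 33.2% in the Control and Notch3IC libraries of Set 1. For Rel they were 1.25% ± 0.145 and 1.21% ± 0.0643. The place of Nfkb1 depends on the length used, since its annotated exons add up to 12061 bases and its longest coding transcript to 4117. Per kilobase of that transcript Nfkb1 averaged 937 in Control, above Nfkb2 at 828. With that length for each gene, the mean share in Control was 38.7% for Rela, 28.01% for Nfkb1 and 24.1% for Nfkb2.

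**Figure D3:**
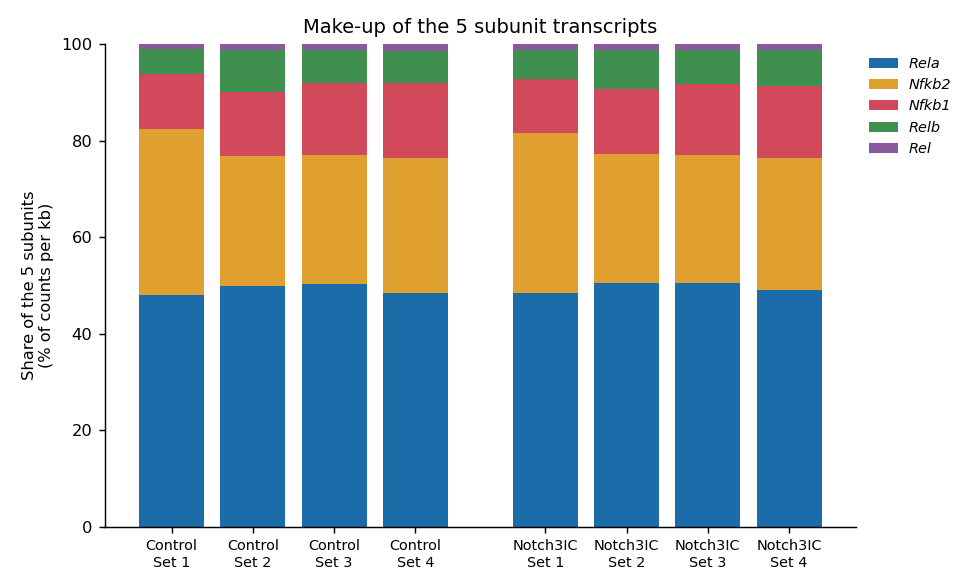
Share of each subunit in the summed normalized counts per kilobase of the 5 subunit genes (percent, stacked), for each of the 8 libraries. With exon lengths Rela makes up 48.1 to 50.5% in every library (a mean of 38.7% in Control with transcript lengths), and Nfkb2 is largest in both libraries of Set 1.

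Among the inhibitors, Nfkbia and Nfkbie gave different pictures. Nfkbia encodes IkB-alpha, the fast feedback inhibitor. It lies on chromosome 12 of GRCm38 from 55489410 to 55492647, and per kilobase its level was close to that of Rela, at 1163 ± 126 in Control and 1192 ± 215 in Notch3IC. It had 1580, 1966, 2039 and 1905 normalized counts in Control and 1462, 1839, 2213 and 2163 in Notch3IC. Within the sets it was lower in Notch3IC in Sets 1 and 2 and higher in Sets 3 and 4. Nfkbia had a log2 fold change of 0.04 (95% interval -0.30 to 0.37, adjusted p = 0.934 by edgeR).

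Nfkbie encodes IkB-epsilon, a slower feedback inhibitor. It lies on chromosome 17 from 45555703 to 45563169. It had 278, 442, 401 and 397 normalized counts in Control and 470, 438, 823 and 700 in Notch3IC. The groups overlapped through Set 2, where Control and Notch3IC were almost equal, and the ratios of Notch3IC to Control by set were, on the log2 scale, 0.76, -0.01, 1.04 and 0.82. Its log2 fold change was 0.68 (standard error 0.23, 95% interval 0.15 to 1.22), with an unadjusted p of 0.0185 and an adjusted p = 0.165 by edgeR. Under the block it was 0.66 with an adjusted p = 0.0598, which passed 0.1 but not the fold-change limit, and with DESeq2 it was 0.66 with an adjusted p = 0.0853. Leaving out Sets 1 to 4 in turn, the blocked log2 fold change was 0.62, 0.87, 0.53 and 0.61, with adjusted p-values of 0.193, 0.00208, 0.223 and 0.230. Over all genes these blocked fits called 46, 904, 59 and 129 higher, against 645 with all 8 libraries. Without the Notch3IC library of Set 2 the adjusted p with condition alone was 0.0676, and without the Notch3IC library of Set 3 it was 0.387. Over all genes the latter fits called 702 and 201 higher.

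Tnfaip3 encodes A20, a ubiquitin-editing enzyme that shuts off signaling upstream of IKK. It lies on chromosome 10 from 19000910 to 19015657. It had 666, 658, 704 and 825 normalized counts in Control and 1187, 602, 1384 and 1052 in Notch3IC. The Notch3IC libraries of Sets 1, 3 and 4 were above every Control library, and that of Set 2 was the lowest of all 8. By set its log2 ratios of Notch3IC to Control were 0.83, -0.13, 0.97 and 0.35. The log2 fold change was 0.57 (standard error 0.23, 95% interval 0.04 to 1.09, adjusted p = 0.233 by edgeR), and with the block it was 0.52 (adjusted p = 0.117). The adjusted p was under 0.1 in 3 of the 16 fits that left out a library or a set, each of them without a library of Set 2. It ranged from 0.0109 without the Notch3IC library of Set 2, where the log2 fold change was 0.76, to 0.759 without the whole of Set 3, where it was 0.40. The 3 fits were without the Notch3IC library of Set 2, without Set 2, and without Set 2 under the block. Over all genes they called 702, 670 and 904 higher, against 423 with all 8 libraries and 645 with all 8 under the block. The fit without Set 3 called 1.

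Birc3 encodes cIAP2, a ubiquitin ligase that with TRAF2 and TRAF3 keeps NIK low. It was low per kilobase of exon, at 25.1 ± 2.85 in Control and 26.8 ± 3.76 in Notch3IC, a level that overlapped that of Rel. Per kilobase of the longest coding transcript Birc3 averaged 43.2 in Control and Rel 29.0, so which of them was the least abundant of the 10 genes depends on the length used. It had 112, 146, 121 and 124 normalized counts in Control and 123, 116, 158 and 139 in Notch3IC. Birc3 had a log2 fold change of 0.10 (95% interval -0.29 to 0.48, adjusted p = 0.826 by edgeR), on 79 to 172 counts per library.

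Bcl3 was the gene of the 10 whose groups differed most. It encodes an atypical IkB protein that binds p50 and p52 homodimers in the nucleus and can turn them into activators. It lies on chromosome 7 from 19808462 to 19822770, on the minus strand, and 6.51% of its exon bases overlap Gm16175 on the opposite strand. It had 1289, 1307, 1699 and 1366 normalized counts in Control and 563, 1078, 813 and 859 in Notch3IC. All Notch3IC libraries were below all Control libraries. It was the only 1 of the 10 genes whose groups did not overlap, where 10.8% of all genes tested had such groups. Control averaged 1415 ± 192 and Notch3IC 828 ± 212 (SD, n = 4 per group), a fitted level 1.71-fold lower. Its log2 fold change was -0.77 (standard error 0.19, 95% interval -1.21 to -0.34, adjusted p = 0.0671 by edgeR), past the adjusted p but not the limit of 1. Under the block it was -0.80 (adjusted p = 0.0351), and with DESeq2 -0.79 (adjusted p = 0.00509). Set by set, the log2 ratios of Notch3IC to Control were -1.20, -0.28, -1.06 and -0.67. With condition alone the adjusted p did not pass 0.1 with any single library of Set 3 or Set 4 left out (0.173 to 0.186), nor without the Control library of Set 2 (0.1005), and was 0.420 and 0.445 without the whole of Set 3 or Set 4. Leaving out Sets 1 to 4 in turn under the block, the log2 fold change was -0.68, -0.97, -0.71 and -0.84, with adjusted p-values of 0.134, 0.00268, 0.154 and 0.146. Over all genes these blocked fits called 46, 904, 59 and 129 higher, against 645 with all 8 libraries. With condition alone, the fits without Set 3 or Set 4 called 1 and 0. In all, 6 of the 16 fits that left out a library or a set had an adjusted p under 0.1, and the log2 fold change was negative in each of the 16 (-0.97 to -0.63).

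**Figure D4:**
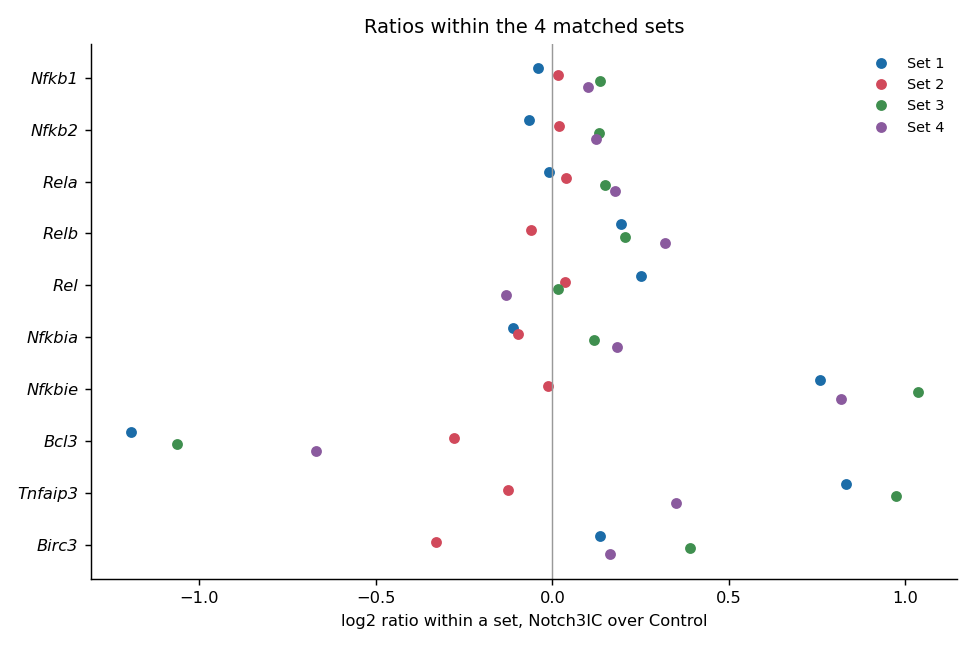
Log2 ratio of Notch3IC over Control within each of Sets 1 to 4 for the 10 genes, from normalized counts with a pseudocount of 0.5. Bcl3 is below 0 in all 4 sets. The Set 2 point is the one nearest 0 for Bcl3, Nfkbie and Tnfaip3, and also for Nfkb1, Nfkb2, Relb and Nfkbia.

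In Set 2, where the Notch3IC library had the least Notch3, the change of Bcl3, Nfkbie and Tnfaip3 was the smallest of the 4 sets. Whether this was particular to these genes was not tested. Set 2 also had the log2 ratio nearest 0 for Nfkb1, Nfkb2, Relb and Nfkbia, at 0.02, 0.02, -0.06 and -0.10. It did not for Rela, Rel and Birc3, and that of Birc3 was its second largest in size, at -0.33. For Nfkb1, Nfkb2 and Nfkbia all 4 ratios lay between -0.11 and 0.18, so which set was nearest 0 says little there. With 1 library per condition in each set, a difference between sets was not tested.

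The rest of the pathway was read from 6 lists with 105 genes, of which 83 could be tested. Of these, 6 were called higher and 2 lower, against 3.4% and 0.74% of all genes tested. Of the 6, Ccl20, Il6 and Tnfsf13b passed the expression filter only through their Notch3IC libraries, since 0, 0 and 2 of their Control libraries reached its level and 4 were needed. These had to differ to be tested, so the counts of calls here and in the lists that follow are a description. All 8 were ligands or inflammatory target genes. The number of calls changed when single libraries were left out. With only the Control library of Set 3 left out, 0 pathway genes were called, and with only that of Set 4 left out, 1 was. Over all genes these fits called 75 and 99 higher and 8 and 11 lower, against 423 and 92 with all 8 libraries. Without the Control library of Set 1 or Set 2, 10 and 5 pathway genes were called. Without the Notch3IC library of Sets 1 to 4 in turn, 6, 11, 4 and 3 were. In the lists of receptors and adaptors, kinases, negative regulators, and survival and stress target genes, with 23, 11, 13 and 13 genes tested, 0 were called by edgeR, and 4, 2, 1 and 3 of them had an unadjusted p under 0.05, where 18.4% of all genes tested did. Under the block 1 negative regulator, Tnip3, was called lower (log2 fold change -1.14, adjusted p = 0.0627 by edgeR), and 0 genes of the other 3 lists were called. Tnip3 was lower in Notch3IC in Sets 2 to 4 and higher in Set 1, on 7 Control and 10 Notch3IC counts. With condition alone its adjusted p was 0.504 by edgeR. The medians of these 4 lists were -0.02, -0.07, -0.14 and -0.11 on the log2 scale.

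Among the ligands 4 of 11 could be tested and 3 were called higher, Tnfsf13b among them, where 3.4% of all genes tested were. Tnfsf11, which encodes RANKL, had 29.7, 17.9, 24.9 and 17.4 normalized counts in Control against 443, 61.5, 534 and 400 in Notch3IC (log2 fold change 4.00, adjusted p = 0.0217 by edgeR). The groups did not overlap, and Set 2 was again the lowest Notch3IC library. Il33, an alarmin of the interleukin-1 family, had 3585, 10939, 7091 and 4089 in Control against 18519, 16974, 29012 and 21660 in Notch3IC (log2 fold change 1.75, adjusted p = 0.0441 by edgeR). Tnfsf13b, which encodes BAFF, a ligand of the non-canonical pathway, rose from 8.53 ± 3.69 to 23.5 ± 5.98 (log2 fold change 1.47, adjusted p = 0.0802 by edgeR). Since it passed the expression filter only through Notch3IC, this p is a description. Tnf and Il1b, the classical triggers of the canonical pathway, were too low to test, at no more than 5.59 and 1.47 normalized counts in any library.

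The inflammatory target genes moved both ways, with 3 of 19 called higher and 2 lower, against 3.4% and 0.74% of all genes tested. Ccl20, a chemokine, rose (log2 fold change 3.21, adjusted p = 0.0544 by edgeR) and was at 4.79 ± 3.76 in Control and 46.2 ± 27.0 in Notch3IC, with 0 counts in the Control library of Set 1. Il6 rose to 26.7 ± 9.60 normalized counts from 5.84 ± 1.80 (log2 fold change 2.18, adjusted p = 0.0270 by edgeR), and Cx3cl1, which encodes fractalkine, from 88.6 ± 10.1 to 256 ± 105 (log2 fold change 1.53, adjusted p = 0.0456 by edgeR). Ccl20 and Il6 could be tested only through their Notch3IC libraries, so their p-values are a description. Icam1, an adhesion receptor for leukocytes, fell from 589 ± 155 to 290 ± 56.9 (log2 fold change -1.02, adjusted p = 0.0492 by edgeR), and its groups met at the Control library of Set 1 and the Notch3IC library of Set 3. Lif, a cytokine of the interleukin-6 family, fell from 623 ± 112 to 297 ± 60.7 (log2 fold change -1.07, adjusted p = 0.0247 by edgeR). The list had a median log2 fold change of -0.42. Under the block Icam1 lost its call, with a log2 fold change of -0.996, just under the limit (adjusted p = 0.0203 by edgeR). The block called 3 genes of the list higher, again Ccl20, Il6 and Cx3cl1, and 4 lower, Lif, Saa3, C3 and Mmp13, against 7.72% of all genes in either direction. Saa3 and Mmp13 reached the level of the expression filter in 4 Control and 3 Notch3IC libraries, where 4 were needed. Their calls are therefore a description too.

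**Figure D5:**
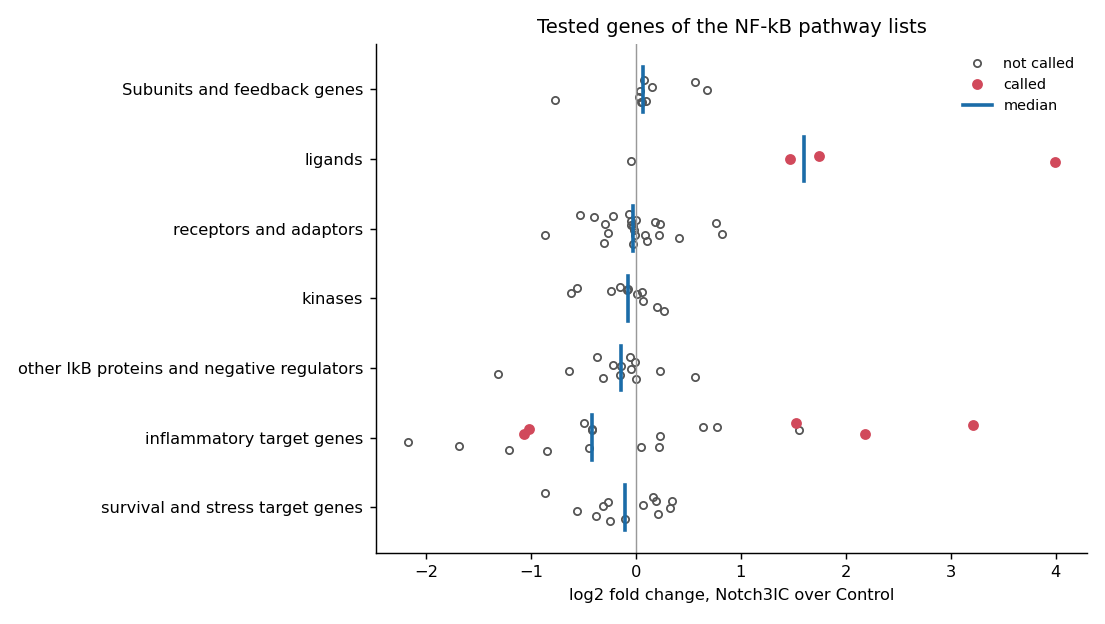
Log2 fold change of Notch3IC over Control for each tested gene of the NF-kB subunits and feedback genes and of 6 pathway lists. Filled points were called and blue bars are medians; called genes appear among the ligands and the inflammatory target genes.

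In the other lists the genes with the smallest p were as follows. Il1rap, the co-receptor for interleukin-1 and interleukin-33, had 588 ± 35.7 normalized counts in Control against 995 ± 321 in Notch3IC (log2 fold change 0.76, adjusted p = 0.0941 by edgeR), under the fold-change limit. Tlr6, a receptor for lipopeptides that include those of mycoplasma, had 92.7 ± 22.2 and 163 ± 50.6 (log2 fold change 0.82, adjusted p = 0.160 by edgeR). Map3k14, which encodes NIK, was lower in Notch3IC in 4 of 4 sets, at 865, 560, 606 and 578 in Control and 551, 526, 368 and 320 in Notch3IC. Its log2 fold change was -0.57 (adjusted p = 0.210 by edgeR; 0.0460 with the block). Ikbkg, the regulatory subunit of IKK, had 1189 ± 77.7 and 1368 ± 88.6 (adjusted p = 0.259 by edgeR). Rbck1, which encodes HOIL-1 of the linear ubiquitin ligase, had 2610 ± 124 and 2101 ± 81.2 and passed the adjusted p but not the fold-change limit (log2 fold change -0.31, adjusted p = 0.0596 by edgeR). Cyld, a deubiquitinase, had 1995 ± 199 and 1547 ± 370 (adjusted p = 0.299 by edgeR). Of the survival and stress genes, Xiap, an apoptosis inhibitor, had 1289 ± 71.3 and 1616 ± 129 (log2 fold change 0.33, adjusted p = 0.0882 by edgeR), and Sod2, the mitochondrial superoxide dismutase, 2406 ± 186 and 1852 ± 241 (log2 fold change -0.38, adjusted p = 0.109 by edgeR). Under the block Tlr6, Cyld and Sod2 also passed the adjusted p (0.0563, 0.0939 and 0.0262), each under the fold-change limit. In all, the block took 2 receptors and adaptors past the adjusted p as higher, Il1rap and Tlr6, and 6 as lower, among them Tlr5 (log2 fold change -0.89) and Tnfrsf1b (-0.57), against 27.1% of all genes in either direction. The same counts were 0 higher and 2 lower for the kinases, 0 and 4 for the negative regulators, and 2 and 3 for the survival and stress genes. For the 19 tested inflammatory target genes they were 5 higher and 9 lower, and for the 4 tested ligands 3 and 0.

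For each subunit the most similar gene over the 8 libraries was found by Pearson correlation of log2 normalized counts. It was Sufu for Nfkb1 (0.976), Mfhas1 for Nfkb2 (0.995), Tcf3 for Rela (0.988), Eid1 for Relb (0.974) and Rnf20 for Rel (0.985). These are the highest of 12430 genes over only 8 libraries that share matched sets and are given as a description. For Nfkb2, 574 genes had a correlation over 0.9, and the rank correlation with Mfhas1 was 0.762. None of the 5 similar genes passed the adjusted p between Notch3IC and Control, with values from 0.425 to 0.980 by edgeR.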

How the data were processed

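The authors deposited raw read counts per gene symbol, 1 table per library. By the study's methods the libraries were poly-A selected, read single-end to 100 bases, aligned with TopHat and quantified with Cufflinks. The submitters' processing notes name mm9, and the annotation, strandedness and tool versions are not given in the sources used here. Counts were analysed with edgeR 4.0.16 in R 4.3.3 (TMM, filterByExpr, robust quasi-likelihood fit, condition alone, Benjamini-Hochberg adjustment over 12430 genes), after a check on simulated counts. Standard errors are the log2 fold change divided by the root of F. DESeq2 1.42.0 and the matched set as a block were alternatives. Across genes, how far the Control library of a set lay from its group mean correlated with how far its Notch3IC partner did (0.79, 0.41, 0.57 and 0.43 for Sets 1 to 4). Across Sets 3 and 4 it was close to the Set 4 value. It was 0.40 for Control of Set 3 with Notch3IC of Set 4, and 0.39 for the reverse. The study calls the sets matched, so set numbers pair the libraries. Coordinates are from GENCODE M21 on GRCm38, promoters from RefSeq, not from mm9, and values carry no coordinates. Figures were drawn with Matplotlib 3.10.9. All 10 genes are named. In each list those called with condition alone are named, or the 2 with the smallest p. Csf1r, Msln, Tnf, Il1b, Tnip3, Saa3, C3, Mmp13, Tlr5, Tnfrsf1b and other markers were picked with values in view. The genes and lists were chosen with earlier results of these data known. Protein sequences were not used here. Of the 10 genes, Birc3 had the fewest counts, 79 to 172 per library.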

Additional observations from a re-analysis of the deposited data

Results flagged for a closer look

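Libraries that stood apart within their group of 4 were looked for in 30 genes and in the total counts, by whether the gap to the nearest library, relative to the range of the group, exceeded Dixon's 95% critical value. Of 62 groups 7 did, where chance gives about 1 in 20, or 3.1, and 4 of the 7 were libraries of Set 1. Nfkb2 was highest in Set 1 in both groups, with 4668 normalized counts for Control and 4460 for Notch3IC, against 2571 to 2928 in the other 6 libraries. Nfkb1 was highest in the Control library of Set 1 at 4095, a gap that is large only because the other 3 Control libraries lay between 3760 and 3806. Map3k14 was highest in the Control library of Set 1 at 865, with the next at 606. Notch3 was highest in the Control library of Set 3 at 70.8, far below any Notch3IC library. In the Notch3IC library of Set 2, Lif was highest at 388 and Tnfsf13b lowest at 14.7, both nearer to the Control level than the other Notch3IC libraries.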

How the results depend on the processing

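The number of NF-kB genes called was 0 with each planned change of normalization, filter or tool, with the replicate block, and in each of the 16 fits without a library or a set (0 to 0), which left 0 to 904 genes called higher, 0 to 426 lower and 0 to 16 pathway genes over the same fits. With no limit on the fold change it was 1, with 210 genes lower. DESeq2 called 707 genes higher and 192 lower, the replicate block 645 and 315, and an adjusted p under 0.05 left 48 lower. A minimum of 10 counts in every library left 5 pathway genes called. Chosen after the data were seen, the replicate block with no fold limit gave 1858 higher, 1509 lower, 2 NF-kB genes and 36 pathway genes, and DESeq2 with no fold limit 1171, 628, 2 and 16. Values near 0 changed sign when libraries were left out, with log2 fold changes of -0.0396 to 0.15 for Nfkbia, -0.15 to 0.28 for Nfkb2, -0.0666 to 0.12 for Rel and -0.0132 to 0.24 for Birc3, and no other setting turned a direction of the 10 genes. Scaled by library totals alone, Bcl3 had an adjusted p of 0.103. At an adjusted p under 0.1 with no fold limit, the block added Nfkbie and changed no other call of the 10 genes. The causes were not tested. Without Set 3 or Set 4 as a whole, 1 gene and 0 genes were called higher among all genes tested, so these fits say nothing about stability.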
